A study of Mus musculus with 16 samples.

Results

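NF-kB and TNF receptor signalling was described through 41 genes that carry the signal from a TNF family receptor to the Rel transcription factors, out of 22396 gene symbols measured. They were chosen by name, for their place in the pathway, and all 41 were found. They comprise 5 Rel/NF-kB subunits, 5 IkB proteins, 9 kinases and kinase partners, 13 adaptors and ubiquitin ligases, 4 brakes and 5 genes of the death branch. The RNA came from EpCAM+ cells, the epithelial fraction sorted from the distal colon, with one library for each of 16 mice.

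The mice carried a floxed Tnfrsf1b, the gene of TNFR2 (Tnfr2 in the study), and the Tnfr2ko mice also carried Cre recombinase under the villin promoter, which acts in intestinal epithelial cells and not in other cells of the sort. The groups were 4 Control and 5 Tnfr2ko mice given water, and 3 Control and 4 Tnfr2ko mice given dextran sulfate sodium (DSS), a detergent-like polymer that injures the colonic epithelium. The labels give 3% DSS for 6 days to the DSS mice and dissection at day 12 for every mouse, whereas the study's methods give another concentration and take uninjured mice at the start. After DSS, injured stretches of colon were cut out for the sort, so the treatment groups also differ in the tissue taken. All 7 DSS mice were female and came from cages of 2 and 5, while the water mice were 4 males in one cage and 5 females in another, so treatment and cage cannot be told apart.

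The targeted gene was checked first. Deposited TPM (a transcript's share of all transcripts, a level per unit of transcript length) of Tnfrsf1b were 22.2, 13.9 and 13.3 in the DSS Control mice and 27.0, 13.5, 15.2 and 17.7 in the DSS Tnfr2ko mice, and 13.5, 15.4, 11.1 and 15.5 in the water Control mice against 11.4, 10.1, 9.23, 14.8 and 13.3 in the water Tnfr2ko mice. The genotypes overlapped under both treatments (two-sided exact permutation p = 0.629 after DSS and p = 0.183 in water). Transcript levels in these libraries therefore do not show the knockout, and the word Tnfr2ko below is the label of the mice. The study itself checked the deletion in EpCAM+ cells of this genotype. It reported less TNFR2 protein by flow cytometry and a loss of expression by qPCR. A deletion of 1 exon can leave a transcript that is still counted, but why the levels overlap here was not tested.

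In the canonical pathway, a ligand such as TNF gathers Tradd, Ripk1, Traf2 and the Birc2 and Birc3 ubiquitin ligases at the receptor, and ubiquitin chains then recruit the TAK1 kinase (Map3k7, with Tab1, Tab2 and Tab3) and the IkB kinase (Ikbkb, Chuk and Ikbkg). The IkB kinase marks IkB proteins for destruction and so frees dimers of Rela, Rel and Nfkb1 to enter the nucleus. A slower branch runs through Map3k14 and Chuk to Nfkb2 and Relb, and is held in check by Traf2, Traf3 and the Birc proteins. NF-kB switches on several of its own inhibitors, and in the gut epithelium the pathway is known both for keeping cells alive and for driving inflammatory genes.

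Promoter windows from members with a match to the kappaB consensus, the letters bound by Rel dimers, are shown for 3 inhibitors and 2 subunits whose levels are given below. RefSeq promoter windows on GRCm38.p6, from 250 bases before to 50 after a start, were held for 32 of the 41 members, and 10 of the 32 carried a match on either strand in at least 1 window. The share was 12 of 42 member windows (28.6%), against 4.51% of all 32851 windows. Each line gives 61 bases that end before the start, 5′ to 3′ on the gene's strand, with matches in capitals (a run over 10 letters is overlapping matches).
Nfkbia: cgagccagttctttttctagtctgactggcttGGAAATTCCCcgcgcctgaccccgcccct
Nfkbie: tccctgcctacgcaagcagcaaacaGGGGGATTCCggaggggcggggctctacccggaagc
Tnfaip3: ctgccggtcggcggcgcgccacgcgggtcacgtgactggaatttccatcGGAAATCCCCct
Nfkb2: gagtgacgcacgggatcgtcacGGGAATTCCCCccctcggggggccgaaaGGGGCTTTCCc
Rel: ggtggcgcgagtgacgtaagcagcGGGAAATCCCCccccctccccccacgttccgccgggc

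The windows lie at chr12:55492648-55492708 (minus strand) for Nfkbia, chr17:45555569-45555629 (plus) for Nfkbie, chr10:19015411-19015471 (minus) for Tnfaip3, chr19:46304676-46304736 (plus) for Nfkb2 and chr11:23771025-23771085 (minus) for Rel. A match is a string of letters and not a measured binding site. The windows of Traf1, Birc3, Tab3 and Ripk3 held no match.

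DSS and water mice were deposited in tables normalized apart from each other. For that reason they are compared here without a test, by the rank of a gene among all genes of the same mouse (a percentile) and by TPM rescaled with one median-of-ratios factor per mouse. A gene is called higher or lower after DSS when the ranks of the 2 treatments do not overlap in any mouse, among genes with a mean of at least 1 rescaled TPM. Differences are of mean log2(rescaled TPM + 1), which understates the change of low genes, with the standard error over mice.

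Over all 16 mice, 40 of the 41 members passed that level (Traf5, a receptor adaptor, did not). Tab2, Tab3 and Ripk3 were higher in all 7 DSS mice than in all 9 water mice, against 10.0% of 11210 genes. Nfkbie, Map3k8 and Traf1 were lower in all 7, against 5.73% of genes. With 3 of 40 in each direction, both shares are close to those of all genes and are no result about the members as a group. The median difference of the members was -0.06, with 20 above 0 and 20 below 0, beside 0.00 for all genes.

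The same count within a genotype rested on fewer mice. In Control mice, 5 of 39 members were called higher (Tab2, Tab3, Ripk2, Fadd and Ripk3, against 18.8% of 11245 genes) and 6 lower (Rel, Nfkbie, Map3k8, Map3k14, Traf1 and Birc3, against 10.9%). Without the third DSS Control mouse, 16 members were lower, against 20.8% of genes, and without the first DSS Control mouse or the fourth water Control mouse 8 were higher, against 22.9% and 22.1%. In Tnfr2ko mice, 5 of 40 were higher (Tab2, Tab3, Traf6, Ripk2 and Ripk3, against 25.5% of 11137 genes) and 7 lower (Nfkbib, Nfkbie, Map3k8, Tradd, Traf1, Rbck1 and Tnip2, against 13.7%), and without the second DSS Tnfr2ko mouse 8 were higher, against 27.3%. Tab2, Tab3, Ripk2 and Ripk3 were higher and Nfkbie, Map3k8 and Traf1 lower in both genotypes, which share no mouse but share cages. These are 4 and 3 of 39 members, against 13.1% and 6.77% of 10879 genes called in both. The sign of the difference was the same in both genotypes for 32 of 39 members (82.1%), beside 82.7% of 10879 genes. With female mice alone, 5 members were higher and 5 lower over all groups, against 15.0% and 8.28% of genes. Over all mice without the third DSS Control mouse, 7 were lower, against 9.17% of genes.

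**Figure D1:**
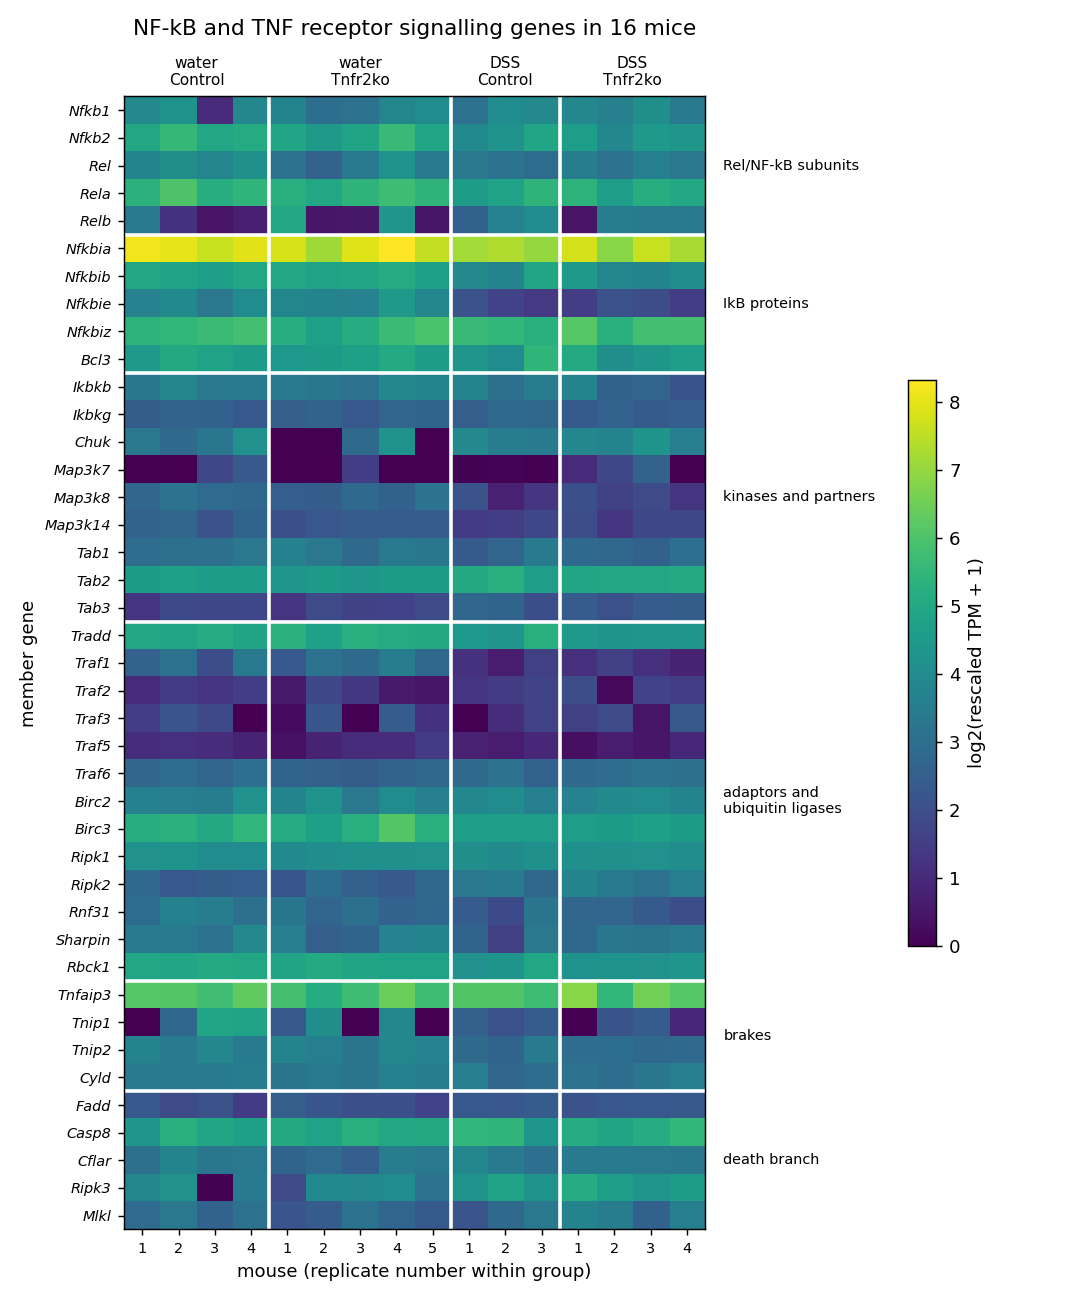
Heat map of log2(rescaled TPM + 1) for the 41 members (rows, by role) in the 16 mice (columns, by group and replicate number). Nfkbia is the brightest row, Nfkbie and Traf1 are darker in every DSS mouse, and Relb, Chuk, Map3k7, Traf3 and Tnip1 change between bright and dark among mice of one group.

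Markers of the other cells in the sort differed between treatments too, and these values stand beside every difference between DSS and water below. The counts of markers are to be read beside the shares of all genes called. Over all mice these were 10.0% higher and 5.73% lower. They were 18.8% and 10.9% in Control mice, and 25.5% and 13.7% in Tnfr2ko mice. Of 12 myeloid markers, 7 were lower in all DSS mice and 2, S100a8 and S100a9, were higher. The difference was below 0 for 10 of the 12, and Csf3r, a neutrophil marker in the list, was not called higher. The summed rescaled TPM of the list ran from 747.8 to 1898.3 in water mice and from 124.6 to 1743.3 in DSS mice, and Csf1r, the macrophage growth factor receptor, went from 68.3 to 165.6 in water to 0.458 to 2.59 after DSS. Of 14 leukocyte, B and plasma cell markers, 10 passed the level and 6 were lower in all DSS mice (summed rescaled TPM 730.2 to 16338.6 in water, 117.0 to 521.7 after DSS). Of 12 T and NK cell markers, 4 passed and 3 were lower (18.4 to 56.3 in water, 1.17 to 6.76 after DSS). Of the 12, 9 stayed under 1 rescaled TPM in every DSS mouse. A marker that is low after DSS can pass the level through the water mice alone, which favours a call of lower. None of the 11 stromal and endothelial markers found was called over all mice, though 9 of 11 differences were below 0 (250.3 to 864.1 in water, 100.7 to 457.8 after DSS). In Control mice alone 3 of these 11 were called lower, and in Tnfr2ko mice 0. Adgre1, Itgax, Fcgr1, Cd3e, Ms4a1 and Cd79b stayed under 1 rescaled TPM in every DSS mouse, and Cd37, Cd8a and Nkg7 were listed at 0 there. All 12 epithelial markers passed, and 9 of 12 differences were below 0, with a median of -0.38 (summed rescaled TPM 7336.5 to 10062.4 in water, 5535.1 to 8665.9 after DSS). In rank, 2 were called higher over all mice and 0 lower. Within a genotype, 3 were called higher in Control and 5 in Tnfr2ko mice, and Muc2, the goblet cell mucin, was called lower in Tnfr2ko mice (-2.02 ± 0.33). Epcam, the gene of the sort marker, ran from 629.4 to 783.5 rescaled TPM in water and from 757.8 to 828.5 after DSS. The part of these cells in the members' differences was not tested, and in a sorted bulk sample fewer cells of a type and less RNA per cell cannot be told apart.

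**Figure D2:**
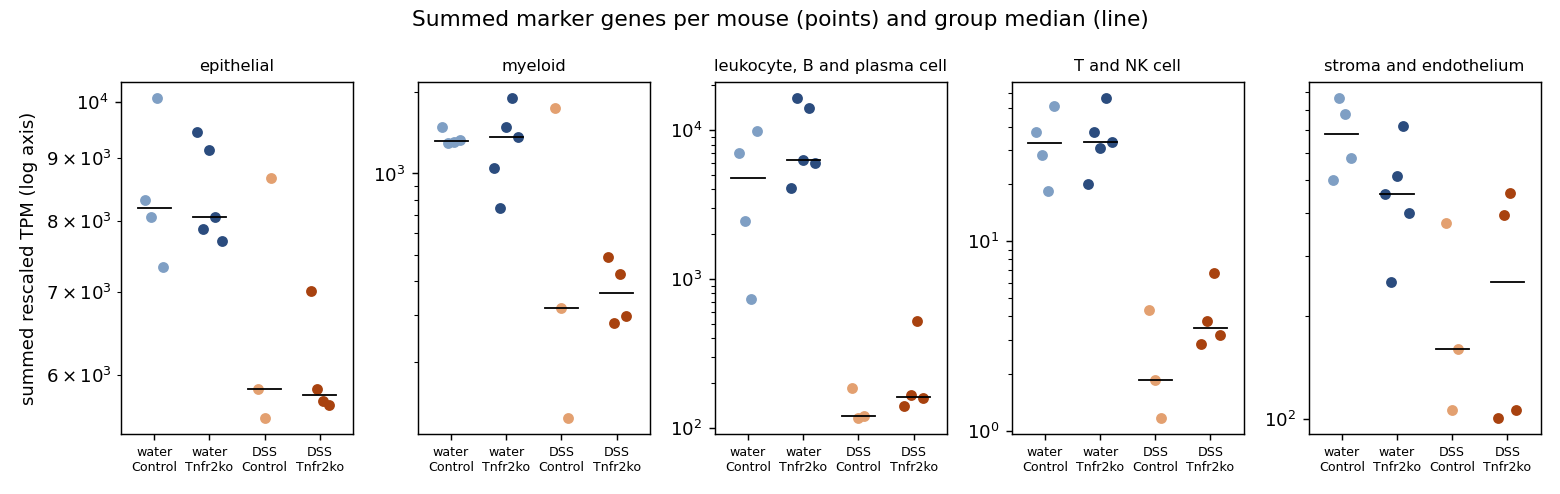
Summed rescaled TPM (log axis) of the marker genes of 5 cell classes in each mouse (points) by group, with the group median as a line. The B and plasma cell and T and NK cell sums of all 7 DSS mice lie below those of all 9 water mice, the myeloid sum of 1 DSS Control mouse lies among the water mice, and the epithelial and stromal sums overlap.

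Among the IkB proteins, which hold Rel dimers in the cytoplasm or steer them in the nucleus, Nfkbie (IkB-epsilon) had the largest difference. Its rescaled TPM were 12.0, 14.8, 8.88 and 15.2 in water Control, 13.0, 12.2, 11.9, 21.7 and 13.1 in water Tnfr2ko, 3.40, 2.19 and 1.62 in DSS Control and 1.83, 3.15, 2.89 and 1.82 in DSS Tnfr2ko mice. Every DSS mouse lay below every water mouse with a wide gap. The difference was -2.02 ± 0.27 (SE) on the log2 scale in Control and -2.16 ± 0.21 in Tnfr2ko mice, and the mean rank differed by -25.4 and -26.7 percentile points.

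Nfkbia (IkB-alpha), the fast-acting inhibitor, was the most abundant member in every mouse, at a rank of 97.3 to 98.7 percent of genes. Its rescaled TPM were 284.1, 256.8, 199.1 and 246.6 in water Control, 223.1, 139.5, 242.1, 321.1 and 186.2 in water Tnfr2ko, 141.9, 160.3 and 128.4 in DSS Control and 219.9, 113.8, 196.9 and 148.8 in DSS Tnfr2ko mice. Its level was lower after DSS in Control mice without overlap on this scale (-0.77 ± 0.14), while its ranks overlapped and differed by -0.3 percentile points, and the Tnfr2ko mice overlapped on both scales (-0.38 ± 0.29). For Nfkbib (IkB-beta) the difference was -0.67 ± 0.36 in Control and -0.86 ± 0.18 in Tnfr2ko mice, called lower in Tnfr2ko mice in rank but not on deposited or sum-scaled TPM. The nuclear members Nfkbiz and Bcl3, which act as cofactors on DNA, overlapped in both genotypes, at -0.12 ± 0.14 and -0.13 ± 0.44 in Control mice and 0.42 ± 0.28 and -0.12 ± 0.23 in Tnfr2ko mice.

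Among the Rel subunits, the DNA-binding proteins themselves, none was called over all mice. Nfkb2 (p100, the precursor of the slower branch) stood at 30.9, 45.9, 30.7 and 33.9 rescaled TPM in water Control, 28.8, 21.9, 28.1, 49.4 and 29.6 in water Tnfr2ko, 14.4, 18.1 and 29.3 in DSS Control and 24.7, 13.8, 21.2 and 20.2 in DSS Tnfr2ko mice. In Control mice every level after DSS lay below every level in water, but the ranks overlapped (-0.79 ± 0.32), and the Tnfr2ko mice overlapped (-0.61 ± 0.25). Rel (c-Rel) was called lower after DSS in Control mice, from 12.5, 16.5, 12.7 and 17.3 to 9.04, 8.08 and 6.74 rescaled TPM (-0.81 ± 0.16). In Tnfr2ko mice its levels of 7.95, 5.16, 9.35, 17.9 and 9.99 in water and 10.6, 7.82, 11.0 and 8.85 after DSS overlapped (0.02 ± 0.28). Rela (p65) differed by -0.57 ± 0.30 in Control and -0.31 ± 0.20 in Tnfr2ko mice, with overlap in both.

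Nfkb1 (p105, the precursor of p50) stood at 14.2, 18.1, 1.04 and 13.4 rescaled TPM in water Control, 12.4, 7.04, 7.75, 13.2 and 15.2 in water Tnfr2ko, 7.70, 15.6 and 14.3 in DSS Control and 13.6, 11.4, 16.6 and 10.1 in DSS Tnfr2ko mice. Apart from the third water Control mouse, the groups covered one range. Relb, the partner of p52, was listed at 9.33, 1.27, 0.366 and 0.667 rescaled TPM in water Control, 29.9, 0.430, 0.442, 20.4 and 0.377 in water Tnfr2ko, 4.99, 12.0 and 15.2 in DSS Control and 0.361, 10.4, 9.92 and 9.27 in DSS Tnfr2ko mice. It was either near 0 or well expressed within 3 of the 4 groups, so its group means say little. The tables list principal isoforms, and none of the 31-base words of the listed Relb transcript is absent from its other isoforms in GENCODE M21. For 20 of the 41 members under 10% of such words are absent from the other isoforms, among them Chuk, Map3k7, Traf3, Tnip1, Ripk3 and Nfkbie, and levels of these genes may move with the division of reads between isoforms, which was not tested.

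Among the kinases, Map3k8 (TPL2, a kinase bound by p105) was lower after DSS. Its rescaled TPM were 5.67, 7.98, 6.54 and 5.80 in water Control, 4.62, 4.47, 6.21, 5.04 and 7.96 in water Tnfr2ko, 3.42, 0.690 and 1.47 in DSS Control and 3.06, 2.07, 2.75 and 1.38 in DSS Tnfr2ko mice. The treatments did not overlap in either genotype (-1.49 ± 0.41 in Control, -1.01 ± 0.22 in Tnfr2ko mice). Map3k14 (NIK, the kinase that starts the slower branch) was called lower in Control mice, from 5.12, 5.70, 3.39 and 5.42 to 1.76, 1.90 and 2.44 rescaled TPM (-0.95 ± 0.17), and in Tnfr2ko mice its levels separated but its ranks overlapped (-0.60 ± 0.16).

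The TAK1 partners that read ubiquitin chains went the other way. Tab2 was higher in rank in every DSS mouse, at 22.2, 25.4, 23.4 and 23.3 rescaled TPM in water Control, 19.3, 22.0, 20.1, 22.0 and 22.5 in water Tnfr2ko, 31.8, 35.9 and 24.1 in DSS Control and 28.9, 31.0, 30.2 and 32.8 in DSS Tnfr2ko mice. On this scale the third DSS Control mouse lay within the water range, and only the ranks separated (0.35 ± 0.17 in Control, 0.52 ± 0.06 in Tnfr2ko mice). Tab3, at 1.41, 2.57, 2.44 and 2.42 in water Control, 1.36, 2.77, 2.06, 2.22 and 2.78 in water Tnfr2ko, 5.71, 5.40 and 3.01 in DSS Control and 4.32, 3.21, 4.38 and 4.52 in DSS Tnfr2ko mice, separated on both scales (0.81 ± 0.27 and 0.67 ± 0.15). Tab1 overlapped (-0.25 ± 0.34 and -0.48 ± 0.15).

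For the IkB kinase itself no difference was called. Its scaffold Ikbkg (NEMO) differed by 0.23 ± 0.13 in Control and -0.12 ± 0.10 in Tnfr2ko mice, and its catalytic subunit Ikbkb (IKK-beta) by -0.02 ± 0.22 and -0.67 ± 0.37. Chuk (IKK-alpha), the other catalytic subunit, was listed at 9.22, 6.31, 8.66 and 17.7 rescaled TPM in water Control, 0, 0.00887, 6.34, 18.4 and 0 in water Tnfr2ko, 14.3, 10.6 and 9.46 in DSS Control and 13.4, 12.1, 18.8 and 10.8 in DSS Tnfr2ko mice. The listed zeros fell in 2 water Tnfr2ko mice beside a mouse near 0. Map3k7 was at or under 5.15 rescaled TPM in every mouse and under 0.1 in 10 of 16.

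**Figure D3:**
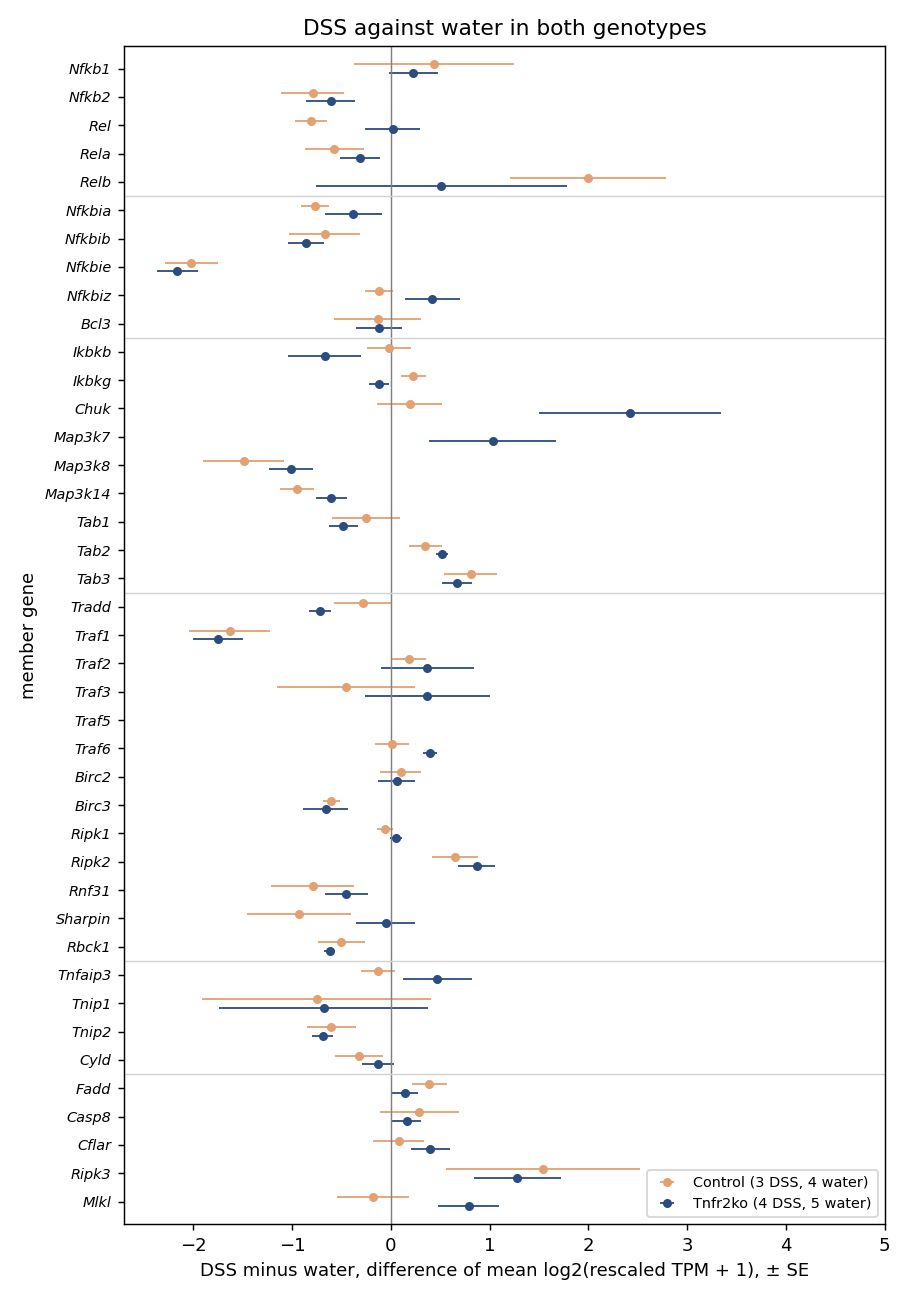
Difference between DSS and water in mean log2(rescaled TPM + 1) for each member, with its standard error, in Control (orange) and Tnfr2ko mice (blue). Nfkbie, Traf1 and Map3k8 lie furthest below 0 in both genotypes, Tab3 and Ripk3 above 0, and the wide bars of Relb, Chuk, Map3k7, Traf3 and Tnip1 belong to genes listed near 0 in some mice.

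Among the adaptors and ubiquitin ligases, Traf1, an adaptor that is itself a well-known NF-kB target, was lower after DSS. Levels in rescaled TPM were 5.17, 7.64, 2.90 and 9.29 in water Control, 3.93, 7.57, 6.42, 10.3 and 5.91 in water Tnfr2ko, 1.26, 0.554 and 2.02 in DSS Control and 1.21, 1.98, 1.20 and 0.741 in DSS Tnfr2ko mice. The lowest water mouse stood above the highest DSS mouse, and the differences were -1.63 ± 0.41 in Control and -1.75 ± 0.25 in Tnfr2ko mice. Traf2, the adaptor of both TNF receptors, was low throughout and overlapped. It stood at rescaled TPM of 1.02, 1.69, 1.37 and 1.91 in water Control, 0.479, 2.43, 1.56, 0.510 and 0.436 in water Tnfr2ko, 1.39, 1.81 and 2.28 in DSS Control and 2.89, 0.144, 2.18 and 1.87 in DSS Tnfr2ko mice (0.18 ± 0.18 and 0.37 ± 0.47). Traf5 was at or under 1.72 in every mouse.

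Birc3 (cIAP2), a ubiquitin ligase that protects cells from TNF-induced death, stood at 35.8, 40.0, 32.0 and 43.4 rescaled TPM in water Control, 33.7, 25.5, 36.8, 67.7 and 35.9 in water Tnfr2ko, 24.4, 24.3 and 24.5 in DSS Control and 23.9, 22.4, 25.7 and 22.3 in DSS Tnfr2ko mice. It was called lower in Control mice (-0.60 ± 0.09), though not on deposited TPM, and in Tnfr2ko mice both ranks and levels overlapped (-0.66 ± 0.23). Of the 31-base words of its listed transcript, 16.31% occur in another gene, so its level is uncertain. Its relative Birc2 (cIAP1) overlapped (0.10 ± 0.21 and 0.06 ± 0.19), as did Ripk1, the kinase at the fork between survival and death, whose difference was within 0.06 of 0 in both genotypes (-0.06 ± 0.08 and 0.05 ± 0.06). Words shared with another gene also made up 12.36% for Cflar, 9.64% for Map3k7, 8.88% for Casp8 and 7.22% for Ripk1. They exceeded 1% in 13 members, whose levels carry the same caution.

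Ripk2, the kinase of the bacterial sensors NOD1 and NOD2, was called higher in rank in each genotype. Rescaled TPM were 6.18, 3.94, 4.47 and 4.60 in water Control, 3.74, 7.04, 4.94, 4.02 and 5.94 in water Tnfr2ko, 8.83, 9.78 and 5.92 in DSS Control and 12.1, 9.49, 7.69 and 11.1 in DSS Tnfr2ko mice. The third DSS Control mouse lay within the water range on this scale, so that in Control mice only the ranks separated, and over all mice the treatments overlapped (0.65 ± 0.23 in Control, 0.87 ± 0.19 in Tnfr2ko mice). Traf6, the ligase of the Toll-like receptor branch, was called higher in Tnfr2ko mice (0.40 ± 0.07) and overlapped in Control mice (0.01 ± 0.17). Tradd, the first adaptor of TNFR1, and Rbck1 (HOIL-1), a subunit of the ligase for linear ubiquitin chains, were called lower in Tnfr2ko mice (-0.72 ± 0.11 and -0.62 ± 0.06) and overlapped in Control mice (-0.28 ± 0.29 and -0.50 ± 0.24). The call for Tradd did not hold on deposited or sum-scaled TPM, and that for Rbck1 not on sum-scaled TPM. The other subunits of that ligase, Rnf31 (HOIP) and Sharpin, overlapped in both genotypes (-0.79 ± 0.42 and -0.93 ± 0.53 in Control, -0.45 ± 0.22 and -0.05 ± 0.30 in Tnfr2ko mice). Traf3, the brake on Map3k14, was listed at 0 in 3 mice and reached 4.22 rescaled TPM in another.

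Of the brakes, Tnfaip3 (A20), which strips ubiquitin chains from the receptor complex, was second in level to Nfkbia among the members in most mice, and its treatments overlapped. The rescaled TPM were 71.2, 66.9, 53.1 and 78.4 in water Control, 57.3, 35.0, 52.4, 85.5 and 53.0 in water Tnfr2ko, 65.7, 66.4 and 51.7 in DSS Control and 114.8, 44.6, 93.0 and 68.7 in DSS Tnfr2ko mice (-0.13 ± 0.17 and 0.47 ± 0.35). Its partner Tnip2 was called lower in Tnfr2ko mice in rank but not on deposited or sum-scaled TPM (-0.69 ± 0.11, and -0.60 ± 0.25 with overlap in Control mice), and Cyld, a second enzyme that removes ubiquitin, overlapped (-0.32 ± 0.24 and -0.13 ± 0.16). Tnip1, which brings A20 to its targets, ranged from near 0 to 28.6 rescaled TPM among the 4 water Control mice, and its treatments overlapped (-0.75 ± 1.16 in Control, -0.68 ± 1.06 in Tnfr2ko mice).

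In the death branch, Ripk3, the kinase that triggers necroptosis, was higher in every DSS mouse. It was listed at 13.1, 17.4, 0.0340 and 10.1 rescaled TPM in water Control, 2.79, 15.0, 14.2, 15.3 and 7.92 in water Tnfr2ko, 17.9, 26.7 and 17.9 in DSS Control and 34.8, 24.0, 19.1 and 23.3 in DSS Tnfr2ko mice. All DSS mice were above the highest water mouse, by a narrow margin in Control mice. The difference was 1.54 ± 0.98 in Control and 1.28 ± 0.44 in Tnfr2ko mice, and without the third water Control mouse the Control value was 0.59. Mlkl, the effector that Ripk3 activates, overlapped (-0.18 ± 0.36 and 0.79 ± 0.31). Fadd, the adaptor of death receptors, was called higher in Control mice in rank, while on rescaled TPM the treatments overlapped (0.39 ± 0.18, and 0.14 ± 0.14 with overlap in Tnfr2ko mice). Casp8, which carries out receptor-induced apoptosis, and Cflar (cFLIP), its inhibitor, overlapped in both genotypes (0.29 ± 0.40 and 0.08 ± 0.26 in Control, 0.16 ± 0.15 and 0.40 ± 0.20 in Tnfr2ko mice). Over all mice, the 5 differences of this branch were above 0, with a median of 0.25.

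The other scalings moved all genes together. Deposited values put the median of all genes 0.31 higher after DSS, and scaling each mouse to a sum of 1000000 put it 0.38 higher. Relative to the median of all genes, the role medians over all mice moved by less than 0.1. Each scaling is one factor per mouse, which shifts all genes nearly alike. This agreement was therefore nearly fixed in advance and is no support for the values. The IkB median over all mice was -0.55 on rescaled, -0.50 on deposited and -0.51 on sum-scaled values. In the same order the Rel subunits were at -0.35, -0.32 and -0.34, the brakes at -0.44, -0.42 and -0.44, and the adaptors at -0.21, -0.26 and -0.25. The kinases were near 0 (0.03, -0.04 and -0.04) and the death branch above it (0.25, 0.27 and 0.28). The genotypes differed in these medians. On rescaled values the Rel subunits were at -0.57 in Control and 0.03 in Tnfr2ko mice, and the adaptors at -0.37 and 0.01. In the same order the IkB proteins were at -0.68 and -0.37, the brakes at -0.47 and -0.40, the kinases at 0.08 and -0.11, and the death branch at 0.28 and 0.40.

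Upstream of the members, TNF and its receptors were set beside them. Tnf was listed at 13.3, 22.8, 13.4 and 16.9 rescaled TPM in water Control, 14.2, 6.26, 7.77, 17.4 and 11.6 in water Tnfr2ko, 25.2, 37.5 and 16.5 in DSS Control and 59.2, 16.5, 31.6 and 39.3 in DSS Tnfr2ko mice. In Tnfr2ko mice it was called higher in rank, while on this scale the second DSS mouse lay below the highest water mouse (1.54 ± 0.45), and it overlapped in Control mice (0.60 ± 0.37). Tnfrsf1a (TNFR1) overlapped in rank (-0.64 ± 0.21 and -0.31 ± 0.13), and so did Tnfrsf1b (-0.13 ± 0.26 and 0.23 ± 0.24).

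Of 50 other genes of the pathway, 46 passed the level over all mice, with a median difference of -0.09. Of the 46, 3 were called higher, against 10.0% of genes, and 2 lower, against 5.73%. Neither share was above that of all genes, so the calls are no result about the list. Tnfrsf10b (the TRAIL receptor), Otud7b, an enzyme that removes ubiquitin, and Tax1bp1, a partner of A20, were called higher, with differences of 1.19 ± 0.18, 0.57 ± 0.07 and 0.46 ± 0.08. Card9, a signalling adaptor best known from myeloid cells, and Map3k3 were lower (-1.61 ± 0.12 and -0.63 ± 0.06). Card9 was at or above 1.69 rescaled TPM in every water mouse and at or under 0.419 in every DSS mouse.

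Of 46 genes known as NF-kB targets, 41 passed, with a median difference of -0.79 beside 0.00 for all genes. The difference was below 0 for 31 of the 41 on rescaled values, and for 25 on deposited and on sum-scaled values. Over all mice 4 of 41 were called higher, against 10.0% of genes, and 5 lower, against 5.73%, so that the share called higher is near that of all genes. Saa3 and Lcn2, genes of the acute phase response, were listed at 0 in all 5 water Tnfr2ko mice and at or under 1.77 and 1.06 rescaled TPM in the water Control mice. After DSS they stood at 7.18 to 117.0 and 2.25 to 37.4 in Control, and at 28.3 to 159.9 and 6.79 to 16.6 in Tnfr2ko mice. Ccnd1 (cyclin D1) was also higher (0.65 ± 0.10). The lower genes were led by Bcl2a1d, a survival gene of leukocytes, at -3.27 ± 0.31, Plau (urokinase) at -2.18 ± 0.32, and Psmb9, an immunoproteasome subunit, at -1.58 ± 0.23.

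The comparison the study was built on, Tnfr2ko against Control within a treatment, was tested with limma on log2(TPM + 1) of the deposited values, with Benjamini-Hochberg adjustment over all genes. After DSS, 0 of 40 members passed an adjusted p of 0.05 (1 of 10899 genes did, 0.00918%), and 0 of 40 had an unadjusted p under 0.05 (2.65% of genes). In water, 0 of 39 passed (1 of 11046 genes, 0.00905%), and again 0 had an unadjusted p under 0.05 (5.28% of genes). Standard errors reached 0.82 after DSS (Relb) and 1.21 in water (Tnip1), so in genes listed near 0 in some mice only large differences could have been detected. Differences of members listed well above 0, such as 0.57 ± 0.37 for Mlkl and -0.63 ± 0.38 for Ikbkb after DSS, did not pass either. With groups this small, the lack of calls does not show equal levels.

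**Figure D4:**
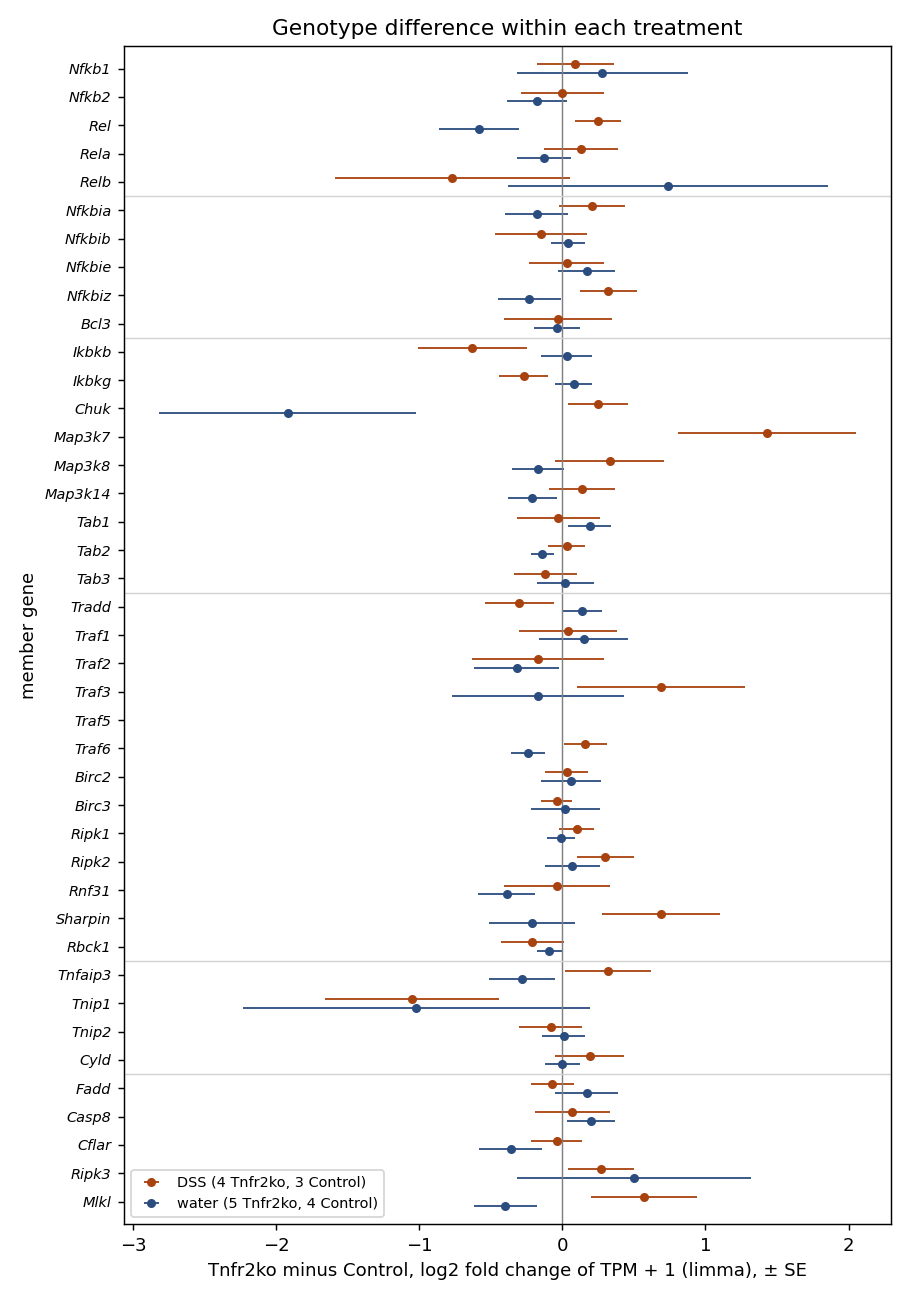
Log2 fold change of TPM + 1 between Tnfr2ko and Control mice for each member within DSS (red-brown) and within water (blue), with its standard error from limma. Most points lie within 0.5 of 0, and those further out belong mainly to genes with wide bars.

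The members with the smallest p after DSS were Map3k7, Tnip1 and Sharpin. Deposited TPM of Map3k7 were 0.0448, 0.0609 and 0 in Control and 1.22, 2.83, 6.04 and under 0.001 in Tnfr2ko mice, so that 3 of 4 Tnfr2ko mice were higher (log2 difference 1.43 ± 0.62, adjusted p = 1.0, exact permutation p = 0.114). Within the cages of 2 and 5 mice the difference was 1.15 and 1.51. Map3k7 passed the filter of a mean TPM of at least 1 only through the Tnfr2ko mice. Its group means were 0.0352 in Control and 2.52 in Tnfr2ko mice. That filter favours a difference in this direction, so its place among the smallest p values is no support for one. Tnip1 had a difference of -1.05 ± 0.61 (-2.69 and -0.48 within the cages) and Sharpin of 0.69 ± 0.41 (-0.52 and 1.24 within the cages), both with a limma adjusted p = 1.0.

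In water the smallest p values belonged to Chuk, Rel and Rnf31, all lower in Tnfr2ko mice on average. Deposited TPM of Chuk were 8.58, 5.75, 7.87 and 16.1 in Control and 0, 0.00812, 5.97, 16.6 and 0 in Tnfr2ko mice (-1.92 ± 0.90, adjusted p = 0.865, exact permutation p = 0.127, and -3.20 in the male and -1.11 in the female cage). For Rel they were 11.7, 15.1, 11.5 and 15.7 in Control and 7.43, 4.72, 8.81, 16.1 and 9.14 in Tnfr2ko mice, 4 of which lay below all Control mice (-0.58 ± 0.28, adjusted p = 0.865, exact permutation p = 0.0952, and -0.86 and -0.46 within the cages). Rnf31 had a difference of -0.39 ± 0.20 (limma adjusted p = 0.865, exact permutation p = 0.111, -0.24 and -0.50 within the cages).

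Nfkbie and Traf1, the members with the lowest differences between treatments, overlapped between genotypes. Mean deposited TPM of Nfkbie were 2.80 in Control and 2.87 in Tnfr2ko mice after DSS, and 11.6 and 13.2 in water (0.03 ± 0.26 and 0.17 ± 0.20). For Traf1 they were 1.53 and 1.53 after DSS, and 5.71 and 6.26 in water (0.04 ± 0.34 and 0.15 ± 0.31). The intervals of these differences are wide, and equality is not shown.

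Whether genotype acted differently under DSS and water was tested by the difference of the 2 effects in one limma fit of the 4 groups on rescaled values, in which a factor common to a table nearly drops out. In limma, 0 of 40 members passed an adjusted p of 0.05 (2 of 11210 genes did, 0.0178%), and 3 had an unadjusted p under 0.05 (4.28% of genes): Mlkl (0.97 ± 0.42), Map3k7 (2.01 ± 0.87) and Rel (0.83 ± 0.37), all with a limma adjusted p = 0.954. Map3k7 passed the filter here through water Control and DSS Tnfr2ko mice, with mean rescaled TPM of 1.59 and 2.14. Its means were 0.39 in water Tnfr2ko and 0.0308 in DSS Control mice, so the filter favours a difference of this sign. Traf6, called between treatments in Tnfr2ko mice, had a difference of effects of 0.39 ± 0.19 (limma adjusted p = 0.954) and in water an exact permutation p of 0.0476.

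Cages within a treatment were compared in the same way, without a test. In the DSS cage of 2 (the third DSS Control and the first DSS Tnfr2ko mouse), 8 of 40 members were above all 5 mice of the other cage in deposited TPM, against 15.6% of 10899 genes, and 1, Tab2, was below all of them, against 9.94%. The 8 were Nfkb2, Rela, Nfkbib, Bcl3, Map3k14, Tradd, Traf2 and Rnf31. Bcl3, for example, was at 52.6 and 39.7 in that cage and at 22.0, 17.8, 19.7, 23.5 and 28.6 in the other. Between genotypes after DSS, none of the 40 separated, beside 2.13% of genes higher and 1.55% lower in Tnfr2ko mice. In water, Tab2 alone was lower in all Tnfr2ko mice than in all Control mice (means of 19.5 and 21.6 deposited TPM, limma adjusted p = 0.865, exact permutation p = 0.0159), against 0.878% of genes, and 0 were higher, against 0.67%. Between the water cages, 1 of 39 members (Rela) was lower in all males than in all females, against 0.996% of 11046 genes, and 0 were higher, against 0.797%.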

How the data were processed

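RNA of sorted EpCAM+ distal colon cells from 16 mice was sequenced, and each mouse is one replicate. The authors deposited TPM per transcript for principal isoforms, in one table for DSS and one for water that were normalized separately. The submitters' processing notes name kallisto, sleuth and mm10. TPM keep no read depth, so the depth of each mouse could not be computed from them (the study's methods give only an approximate figure for all samples), and the small groups set the precision. The p, q and log2 ratio columns of the authors' own comparisons were not used. Of 29373 lines per table, 385 were repeats, which left 28988 transcripts, summed to genes by symbol.

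Genotypes were compared within a treatment with limma 3.58.1 (R 4.3.3, variance trend) on log2(TPM + 1) for genes with a mean TPM of at least 1, with Benjamini-Hochberg adjustment over all genes, and single genes with two-sided exact permutation of mice (smallest possible p = 0.0286 for 3 against 4 mice and p = 0.00794 for 4 against 5). DSS and water were described by within-mouse ranks and rescaled TPM, without a test. The steps were tested on simulated data. Tables were made in pandas 2.3.3 with numpy 2.4.6 under Python 3.11.15, figures in matplotlib 3.10.9, and isoforms were read from GENCODE M21.

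The members and gene lists were chosen with earlier results of these data known. Values per mouse are given for 8 receptor-proximal and self-induced genes (Nfkb1, Nfkb2, Relb, Nfkbia, Tnfaip3, Birc3, Traf1 and Traf2) and for most of the members of each role with the largest differences between DSS and water in Control mice. Of the latter, Sharpin, Tnip1, Tnip2 and Fadd are described by their differences, and Map3k14 by the values of Control mice and a difference in Tnfr2ko mice. The 3 members with the smallest p of each genotype comparison, the 3 leading genes in each direction of the other lists, Tnf and its receptors are also named. Further members are named to account for every role, after their values were seen. Alternatives were other scalings, pseudocounts and filters, quantile normalization, females alone, a replicate block and leaving out each mouse.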

Additional observations from a re-analysis of the deposited data

Results flagged for a closer look

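Of 123 groups of 4 or 5 mice examined, 7 held a mouse far from the others by Dixon's criterion on log2(TPM + 1). Chance alone gives about 1 in 20, and 7 of 123 is close to that share. Values are shown as deposited TPM, on which the criterion could pick other mice. Nfkb1 was at 0.943 in the third water Control mouse and at 12.1 to 16.5 in the others of its group. Relb was at 0.434 in the first DSS Tnfr2ko mouse, with the others at 10.9 to 12.3. Nfkbie was at 19.5 in the fourth water Tnfr2ko mouse, above the 11.1 to 12.2 of its group. Map3k7 was at 1.83 in the third water Tnfr2ko mouse and under 0.001 in the others. Map3k14 was at 3.08 in the third water Control mouse, below the 4.76 to 5.19 of the rest. Tab3 was at 1.32 in the first water Control mouse against 2.19 to 2.34, and at 3.82 in the second DSS Tnfr2ko mouse against 5.15 to 5.34. The groups of 3 DSS Control mice were not examined.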

How the results depend on the processing

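Members called between genotypes stayed at 0 under all alternatives. Among all genes, the 1 gene called after DSS became 0 with a pseudocount of 0.1, no filter or the replicate block, and 0 to 3 with 1 mouse left out. The 1 gene called in water became 0 with a pseudocount of 0.1, a mean TPM of at least 5 or the replicate block, 4 with no filter, 3 with all 4 groups in one fit, and 1 to 2 with 1 mouse left out. The 2 genes called for the difference of effects became 1 with a pseudocount of 0.1, no filter, sums of 1000000, quantile normalization or deposited scaling, 0 with a mean of at least 5 or the replicate block, and 1 to 4 with 1 mouse left out. Replicate numbers did not pair the mice (correlations of -0.197 to -0.0253 after DSS and -0.0769 to 0.0932 in water), so the replicate block gives no paired result. In the counts that follow, the percentage is the share of all genes called under that setting. Members called higher after DSS in Control mice numbered 5, and 2 on rescaled TPM (10.2% of genes), 3 on sums of 1000000 (16.9%) and 3 with a mean of at least 5 (19.6%). They numbered 7 on deposited TPM (30.8%), 6 in females (28.7%) and 5 to 8 with 1 mouse left out (22.9% and 22.1% where they were 8). Those called lower numbered 6, and 3 with a mean of at least 5 (10.6%), 8 on rescaled TPM (14.5%) and 8 in females (15.3%). With 1 mouse left out they numbered 6 to 16 (20.8% where they were 16). In Tnfr2ko mice the 5 higher became 9 on sums of 1000000 (35.2%), 7 on deposited TPM (31.5%) and 5 to 8 with 1 mouse left out (27.3% where they were 8). The 7 lower became 4 on deposited TPM (10.3%), 2 on sums of 1000000 (6.80%), 10 in females (17.4%) and 7 to 9 with 1 mouse left out (no share was computed for the 9). Over all mice the 3 higher became 5 on deposited TPM (18.9%), 5 in females (15.0%), 2 on rescaled TPM (4.39%) and 2 on sums of 1000000 (11.6%). With 1 mouse left out they numbered 3 to 4 (no share was computed for the 4). The 3 lower became 1 with a mean of at least 5 (5.75%), 5 in females (8.28%), 4 on rescaled TPM (7.05%) and 3 to 7 with 1 mouse left out (9.17% where they were 7). Over all mice, Nfkbie was lower under every alternative, Traf1 and Tab3 were lost only with the mean of at least 5, which removes them, and Ripk3 only on sums of 1000000. Tab2 was lost on rescaled TPM and sums of 1000000, and Map3k8 on sums of 1000000 and with the mean of at least 5. The mean log2 level of T and NK cell markers was 0.15 higher in Tnfr2ko mice after DSS (exact permutation p = 0.114) and 0.58 higher with a pseudocount of 0.1 (exact permutation p = 0.0286, the smallest possible), an alternative chosen after seeing the data. The causes of these changes were not tested. No called value of a named gene changed sign, while uncalled ones such as Nfkbia in Tnfr2ko mice did with the scaling.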

Other observations

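The list of 50 other pathway genes had a mean log2(rescaled TPM + 1) of 3.40 ± 0.02 (SD, n = 4) in water Control and 3.25 ± 0.08 (SD, n = 5) in water Tnfr2ko mice, a difference of -0.16 (two-sided exact permutation p = 0.0159, adjusted p = 0.222 over 14 list comparisons). With a pseudocount of 0.1, chosen after seeing the data, it was -0.28, and on deposited scaling -0.15, each with the same exact permutation p = 0.0159. After DSS the difference was 0.01 (exact permutation p = 0.8). For the NF-kB target genes it was 0.12 after DSS (exact permutation p = 0.657) and -0.11 in water (exact permutation p = 0.5). The marker lists of 5 cell classes had adjusted exact permutation p values of at least 0.8 between genotypes under both treatments.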
